A study of Mus musculus with 4 samples.

Results

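The 10 genes described here belong to the chemokine family and can be transcribed by tumour cells, and they were taken by symbol from the 51905 genes of the expression tables. They are Ccl2, Ccl5, Ccl7, Cxcl1, Cxcl5, Cxcl10, Cxcl11, Cxcl12, Cxcl16 and Cx3cl1. Chemokines are small secreted proteins that direct leukocytes along concentration gradients through G protein-coupled receptors, and their names follow the spacing of conserved cysteines (CC, CXC, CX3C). Monocytes follow Ccl2 and Ccl7, neutrophils follow Cxcl1 and Cxcl5, and activated T cells and natural killer cells follow Ccl5, Cxcl10 and Cxcl11. In tumours, the chemokines made by the cancer cells themselves help to set which leukocytes enter.

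Colorectal cancer cells of mouse origin, the lines CT26 (from BALB/c) and MC38 (from C57BL/6), were infected with a lentivirus that delivers a short hairpin RNA. The hairpin of the control cells was directed against GFP (shGFP), and the other was directed against mouse Aurora-A, a mitotic kinase encoded by Aurka (shmaurka-1). The study asked how Aurora-A in tumour cells bears on the immune cells around them. RNA was taken 48 h after seeding and 1 strand-specific library was sequenced for each of the 4 conditions, labelled CT26 shGFP, CT26 shmaurka-1, MC38 shGFP and MC38 shmaurka-1. Both lines were labelled wild type in genotype, all cells carried a lentiviral hairpin, and a single hairpin against Aurka was sequenced. The lines were grown in different media, so line and medium cannot be told apart.

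The libraries held between 22207768 and 23752269 fragments. Aurka, the targeted gene, had 5724 (shGFP) and 1093 fragments (shmaurka-1) in CT26, and 2300 and 413 in MC38. With shmaurka-1 the CT26 log2 fold change was -2.27 (95% interval -2.36 to -2.17) and the MC38 one -2.45 (-2.60 to -2.30). The labels call CT26 a fibroblast and MC38 an epithelial cell. The keratin Krt18 had 1516 and 1485 fragments in the CT26 libraries but 12 and 14 in those of MC38, and the epithelial adhesion gene Cdh1 had at most 6 fragments in any library. The summed FPKM of 9 epithelial markers was 43.0 and 42.7 in CT26 and 1.29 and 0.964 in MC38, and Krt18 gave most of the CT26 sums. Krt20 had 434, 205, 2 and 0 fragments, whereas Vil1, an intestinal epithelial gene, had 0, 0, 38 and 29. Epcam and Cldn7 had at most 1 fragment in any library, so the adhesion markers that define epithelium were close to absent from both lines, MC38 included. The summed FPKM of 10 mesenchymal markers was 524.8 and 547.6 in CT26 and 345.7 and 295.1 in MC38, most of it Vim (15826, 14721, 15340 and 12373 fragments), while Thy1 had at most 5 fragments and Fap at most 18. Among 14 leukocyte markers 9 never exceeded 3 fragments, among them the pan-leukocyte gene Ptprc with 2, 2, 0 and 3. The T cell gene Cd3e had 0 in every library. The summed FPKM of the leukocyte markers was 5.12 and 3.901 in CT26 and 5.90 and 5.27 in MC38, lower in the shmaurka-1 library of each line, and Cd68 gave the most fragments, 109, 79, 145 and 127.

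Cxcl1 and Cxcl10 carried most of the chemokine mRNA, and the sequences just before their transcription starts are shown because both genes moved in the comparisons that follow. Chemokine genes are classic targets of NF-kappaB, which binds kappaB sites, and Cxcl10 is also a classic interferon target. The capitals mark matches to the kappaB consensus, and in Cxcl10 also the match to GAAANNGAA, the core of the interferon-stimulated response element. Both strands were searched, and the sequences are the 250 bases before the start in the RefSeq annotation of GRCm38.p6, the C57BL/6J reference, whereas CT26 comes from BALB/c.
Cxcl1: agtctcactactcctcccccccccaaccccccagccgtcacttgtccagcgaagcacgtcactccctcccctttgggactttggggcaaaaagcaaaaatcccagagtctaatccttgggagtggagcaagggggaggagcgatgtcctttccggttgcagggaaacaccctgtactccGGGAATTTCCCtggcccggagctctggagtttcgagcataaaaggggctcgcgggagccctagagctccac
Cxcl10: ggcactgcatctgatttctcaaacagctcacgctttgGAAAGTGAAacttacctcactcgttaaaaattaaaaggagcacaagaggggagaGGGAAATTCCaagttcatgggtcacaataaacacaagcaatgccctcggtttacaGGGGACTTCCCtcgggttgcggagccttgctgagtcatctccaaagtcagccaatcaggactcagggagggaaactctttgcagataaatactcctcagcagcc

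The Cxcl1 sequence lies at chr5:90890995-90891244 on the plus strand. It holds 2 overlapping kappaB matches, 71 to 62 and 70 to 61 bases before the start. The Cxcl10 sequence lies at chr5:92348890-92349139 on the minus strand. It holds 1 GAAANNGAA match, 213 to 205 bases before the start, and 3 kappaB matches, at 159 to 150 bases and, overlapping each other, at 104 to 95 and 103 to 94 bases. Of 32851 promoters of the same length, 7.13% hold GAAANNGAA and 7.25% hold a kappaB match. Of the 10 genes, 4 had a promoter in the RefSeq table, and those of Cxcl12 and Cx3cl1 hold neither match. A match describes the letters and is no evidence of binding.

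The 10 genes lie on 4 chromosomes in GRCm38. Cxcl5 (chr5:90759298-90761625), Cxcl1 (chr5:90891245-90893121), Cxcl10 (chr5:92346638-92348889) and Cxcl11 (chr5:92359544-92363296) are on chromosome 5, and 10654 bases separate Cxcl10 from Cxcl11. Ccl2 (chr11:82035577-82037452) and Ccl7 (chr11:82045712-82047525) are 8259 bases apart on chromosome 11, which also carries Ccl5 (chr11:83525778-83530518) and Cxcl16 (chr11:70454389-70459984). Cxcl12 is at chr6:117168535-117181368 and Cx3cl1 at chr8:94772180-94782427. RefSeq lists Cxcl11 of the C57BL/6J reference as a transcribed pseudogene, so its mRNA in MC38 may not give the protein. In the files, Cxcl10 and Cxcl11 share a locus with each other and with Art3, which had between 2 and 13 fragments. Cxcl16 shares one with Zmynd15, at 1 to 5 fragments. Whether counting used the strand is not given in the sources used here, so the values of genes with overlapping neighbours carry that uncertainty.

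Levels are compared between genes as deposited FPKM, which corrects fragments for the length of the transcript and the depth of the library. CT26 was dominated by Cxcl1 and MC38 by Cxcl10. The 10 genes summed to 414.4 FPKM in CT26 shGFP, 511.2 in CT26 shmaurka-1, 183.9 in MC38 shGFP and 477.1 in MC38 shmaurka-1. Cxcl1 made up 70.4% and 71.0% of this sum in the CT26 libraries and 3.23% and 3.28% in those of MC38. The share of Cxcl10 was 18.6% and 19.2% in CT26 and 69.9% and 73.6% in MC38. The leading gene of each line was therefore the same with both hairpins, while the sum was higher with shmaurka-1. Smaller shares did move in MC38, that of Cx3cl1 from 2.17% to 0.869% and that of Ccl5 from 5.68% to 4.31%. Neither gene itself was lower with shmaurka-1 there, at 3.99 and 4.14 FPKM for Cx3cl1 and 10.4 and 20.6 FPKM for Ccl5, while the sum rose. In bulk RNA, fewer cells making a gene and less RNA per cell cannot be told apart.

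**Figure D1:**
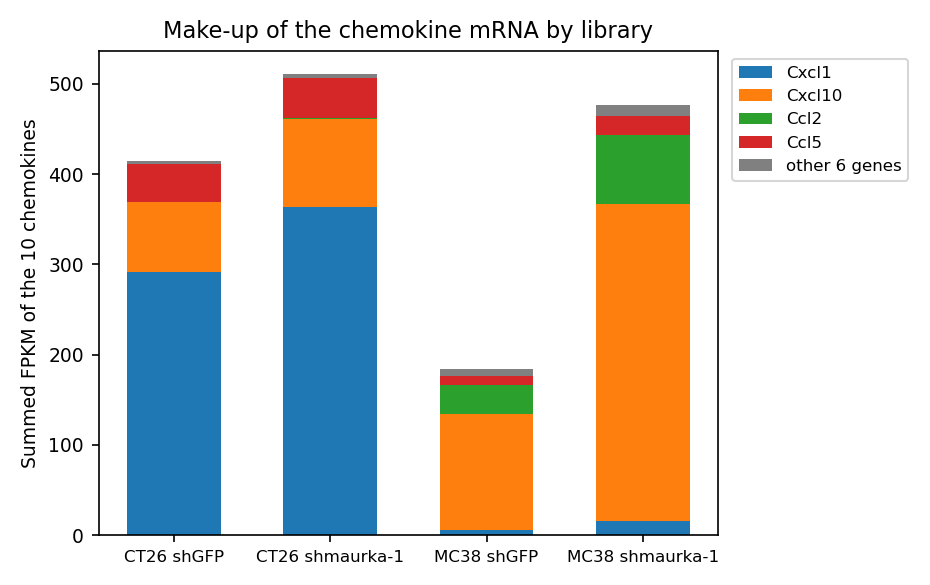
Stacked bars give the summed FPKM of the 10 chemokine genes in each of the 4 libraries, with Cxcl1, Cxcl10, Ccl2 and Ccl5 in colour and the other 6 genes in grey. Cxcl1 fills most of both CT26 bars and Cxcl10 most of both MC38 bars, and the MC38 shmaurka-1 bar reaches 477.1 against 183.9 for MC38 shGFP.

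Cxcl1, which attracts neutrophils, had 3244 fragments in CT26 shGFP, 3754 in CT26 shmaurka-1, 86 in MC38 shGFP and 210 in MC38 shmaurka-1. Its level was 291.5, 363, 5.94 and 15.7 FPKM in the same order. Both CT26 libraries stood far above both MC38 libraries, and in each line the shmaurka-1 library was the higher one. Cxcl5, which acts on the same receptor, Cxcr2, had 14, 26, 6 and 2 fragments, or 0.992, 1.99, 0.331 and 0.125 FPKM. The counts were highest in CT26 shmaurka-1 and lowest in MC38 shmaurka-1, at under the 3 fragments taken as the floor, the limit that a count of 0 allows.

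Cxcl10, a ligand of Cxcr3 that draws effector T cells, was abundant in all 4 libraries. It had 1367 and 1588 fragments in CT26 shGFP and CT26 shmaurka-1, and 2778 and 7449 in MC38 shGFP and MC38 shmaurka-1. Its level was 77.2, 98.03, 128.6 and 351 FPKM, with MC38 shmaurka-1 standing above the other 3 libraries. Cxcl11, another Cxcr3 ligand, had 17, 23, 25 and 83 fragments, or 0.826, 1.20, 0.755 and 2.82 FPKM. Its highest library was also MC38 shmaurka-1, and the other 3 were close to each other. Ccl5, an attractant of T cells and monocytes, had 294 and 268 fragments in CT26 and 86 and 169 in MC38, with levels of 42.1, 44.2, 10.4 and 20.6 FPKM. The CT26 libraries were alike and both lay above the MC38 libraries, where shmaurka-1 was the higher.

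Ccl2, the ligand of Ccr2 that recruits monocytes, had 9 and 16 fragments in CT26 and 468 and 1100 in MC38. Its level was 0.738 and 1.42 FPKM in CT26 against 31.7 and 76.9 FPKM in MC38, so it was the next most abundant of these genes after Cxcl10 in MC38 and close to the bottom of the detected range in CT26. Ccl7, its neighbour on chromosome 11 and a ligand of Ccr1, Ccr2 and Ccr3, had 3, 4, 22 and 76 fragments, or 0.242, 0.354, 1.48 and 5.21 FPKM. The order of the libraries was the same as for Ccl2. Cx3cl1 encodes a membrane-anchored chemokine whose receptor is Cx3cr1, and it had 3 and 5 fragments in CT26 and 419 and 434 in MC38. That is 0.0316 and 0.0603 FPKM in CT26 and 3.99 and 4.14 FPKM in MC38, so the lines were far apart and the hairpins were not.

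Cxcl12, the homeostatic ligand of Cxcr4 made chiefly by stromal cells, had 38, 35, 33 and 26 fragments, or 0.771, 0.691, 0.603 and 0.480 FPKM. It was low and nearly level across the 4 libraries. Cxcl16, a membrane-anchored ligand of Cxcr6, had 1, 3, 3 and 2 fragments, none above the floor, and no fold is given for it.

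**Figure D2:**
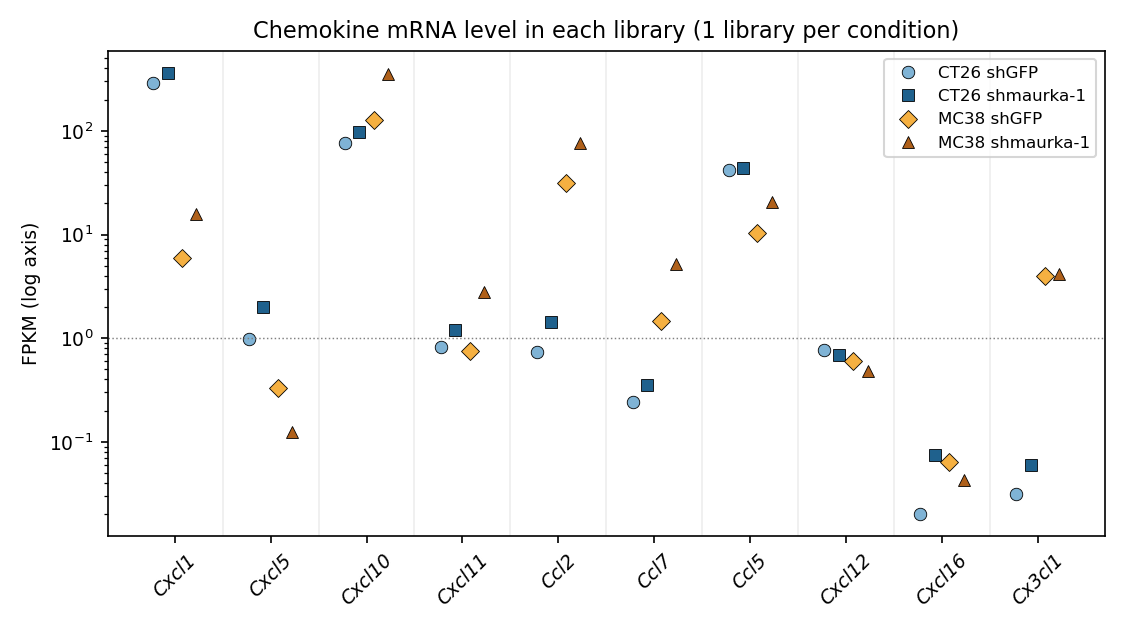
Points give the FPKM (log axis) of each chemokine gene in each library, 1 library per condition, with a dotted line at 1 FPKM. Cxcl1 separates the lines with CT26 on top, while Ccl2, Ccl7 and Cx3cl1 separate them with MC38 on top, and Cxcl16 lies below 0.1 FPKM in every library.

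The lines were compared first, with the hairpin as a block. Genes entered the test with a mean of at least 10 counts over the libraries of each line, which left 11928 genes and 6 of the 10 chemokines, Ccl2, Ccl5, Cxcl1, Cxcl10, Cxcl11 and Cxcl12. A gene was called at a Benjamini-Hochberg adjusted p under 0.05 over all genes tested. The p-values measure only the spread between these libraries, taken from the trend over all genes. Of the 6 genes, 2 were called higher in CT26 and 3 higher in MC38, where 36.6% of all genes tested were called higher in CT26 and 36.7% were called lower. Calls are thus common between these lines, and the sizes of the differences carry more than their number. With total-count scaling the share of calls that were higher in CT26 was 34.1% against 49.9%, and the median log2 difference of all genes tested was -0.32 against 0.00. The chemokine differences given here kept their direction with that scaling.

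Cxcl1 was higher in CT26 by 4.91 on the log2 scale (SE 0.13, adjusted p = 3.60e-273, edgeR quasi-likelihood test). Between the libraries with the same hairpin, it was 43.9-fold higher in CT26 with shGFP and 22.4-fold higher with shmaurka-1. Ccl2 had a log2 difference of CT26 minus MC38 of -5.61 (SE 0.23, edgeR adjusted p = 3.16e-122), which makes it the largest in size of the 6. With shGFP it was 39.96-fold higher in MC38 (95% interval 23.0 to 97.0) and with shmaurka-1 51.9-fold higher (33.5 to 96.0). These and all later intervals for a pair of libraries are exact, come from the fragments of those libraries and cover counting error only. Cxcl1 and Ccl2 thus separated the lines in opposite directions.

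Ccl5 was higher in CT26 by 1.47 on the log2 scale (SE 0.19, edgeR adjusted p = 1.72e-13). It was 3.99-fold higher there with shGFP (95% interval 3.16 to 5.19) and 1.99-fold higher with shmaurka-1 (1.64 to 2.43). Cxcl10 had a log2 difference of -1.35 (SE 0.11, edgeR adjusted p = 1.50e-36), and the MC38 library was 1.72-fold higher with shGFP and 3.73-fold higher with shmaurka-1. The gap between the lines was therefore wider for Cxcl10 and narrower for Ccl5 with the Aurka hairpin than with the control hairpin. Cxcl11 was called higher in MC38, with a log2 difference of -1.05 (SE 0.37, edgeR adjusted p = 0.00652). DESeq2 did not call it (adjusted p = 0.228), nor did limma on log2(FPKM + 1) (log2 difference -0.37, adjusted p = 0.143). With shGFP its MC38 to CT26 ratio of 1.23 had an interval of 0.647 to 2.46, which includes no difference, and with shmaurka-1 it was 2.80-fold higher in MC38 (1.79 to 4.78). Cxcl12 had a log2 difference of 0.61 (SE 0.36, edgeR adjusted p = 0.114) and was not called.

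The filter left out genes low in 1 line. Cx3cl1, Ccl7 and Cxcl5 could pass a filter only through the line where they are high, so their line differences are described with no test. Cx3cl1 was 90.2-fold higher in MC38 with shGFP (95% interval 40.2 to 576.2) and 58.9-fold higher with shmaurka-1 (29.4 to 213.7), over 3 and 5 fragments in CT26. Ccl7 was 4.96-fold higher in MC38 with shGFP (1.87 to 32.4) and 12.6-fold higher with shmaurka-1 (5.67 to 56.9). For Cxcl5, higher in CT26, the shGFP libraries differed 2.48-fold with an interval of 0.994 to 8.74, and the shmaurka-1 libraries 10.9-fold with an interval of 4.09 to 142.1.

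**Figure D3:**
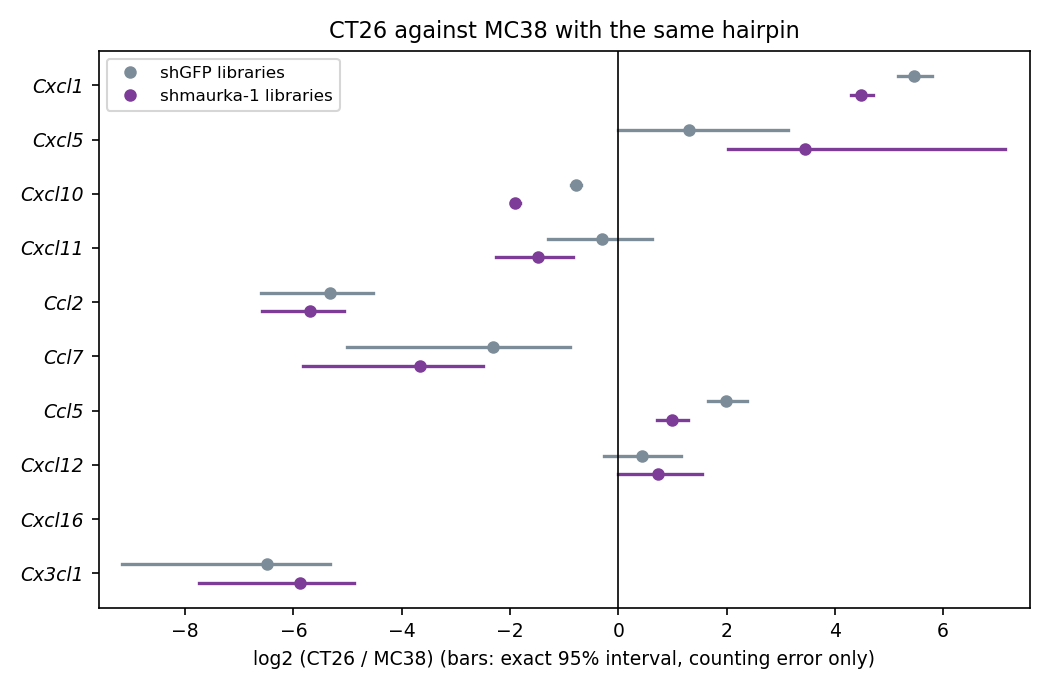
Points give the log2 ratio of CT26 to MC38 for each chemokine gene, in the shGFP libraries and in the shmaurka-1 libraries, and bars give the exact 95% interval of counting error. Cx3cl1, Ccl2 and Ccl7 lie left of 0, that is higher in MC38, and Cxcl1 and Ccl5 lie right of 0 with both hairpins.

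The knockdown was then tested over both lines with cell line as a block, so that each line gave 1 pair of libraries. Each gene had 1 residual degree of freedom, but the prior degrees of freedom were infinite. The spread behind each p-value was therefore the trend over all genes. A gene's own disagreement between the lines had no weight in it. Of the 6 chemokines tested 4 were called higher with shmaurka-1 and 0 lower (0 lower also at an unadjusted p under 0.05 by edgeR, DESeq2 or limma), where 1.67% of all genes tested were called higher and 1.12% lower. With total-count scaling, 49.1% of the calls over all genes were higher against 59.8%, and the same number of chemokines, 4, was called. The median log2 fold change of the 6 was 0.77, against -0.0023 for all genes tested. The number of calls depends on the test: limma on log2 CPM (counts scaled to library size) called 3 (Ccl2, Cxcl1 and Cxcl10), limma on log2(FPKM + 1) and edgeR without the block of cell line called 0 (5 and 0 at an unadjusted p under 0.05), and with a mean of at least 50 counts, which left 3 to test, edgeR called Cxcl10. DESeq2's Wald test called 0, with 1 at an unadjusted p under 0.05, but it gave 4 of the 6 no adjusted p. Ccl2 was among those 4, at a log2 fold change of 1.18 (unadjusted p = 7.65e-05, DESeq2 fit across all genes). Cxcl1 and Cxcl10 had a DESeq2 adjusted p of 1.0, from unadjusted p-values of 0.0904 and 0.0913. The test takes the mean of the lines, so the values of each line are given beside it.

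Cxcl10 rose by 0.91 on the log2 scale (SE 0.10, edgeR adjusted p = 8.40e-15). The log2 fold change of Cxcl10 within CT26 was 0.34 (95% interval 0.23 to 0.44), and within MC38 it was 1.45 (1.39 to 1.52), so both intervals lay above 0 and the MC38 one far higher. Only 0.143% of the genes tested had as high a fold change in MC38, against 9.41% in CT26. Cxcl1 rose by 0.63 (SE 0.12, edgeR adjusted p = 9.26e-05). Within CT26 the change of Cxcl1 was 0.33 (0.26 to 0.40), and within MC38 it was 1.31 (0.95 to 1.70), on the small base of 86 fragments in MC38. As high a fold change as that of Cxcl1 was found for 0.243% of the genes tested in MC38 and for 9.71% in CT26. The most abundant chemokine of each line was therefore among those that rose, though Cxcl1 rose only 1.26-fold in CT26.

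Ccl2 rose by 1.22 on the log2 scale (SE 0.20, edgeR adjusted p = 5.13e-07). In MC38 its log2 fold change was 1.26 (1.11 to 1.42), and in CT26 it was 0.88 with an interval of -0.31 to 2.31, which includes no change at 9 and 16 fragments. Cxcl11 rose by 1.26 (SE 0.37, edgeR adjusted p = 0.0276). Its log2 fold change was 1.72 in MC38 (1.10 to 2.47), and in CT26 it was 0.53 with an interval of -0.41 to 1.55. For Ccl2 and Cxcl11 a difference between the CT26 libraries was not detectable at this depth, and the call of Cxcl11 was lost under several settings. Its edgeR adjusted p was 0.0609 with no filter, 0.0643 with filterByExpr and 0.0678 with a mean of at least 10 counts required in either line, a setting chosen after the data were seen. It was 0.067 by limma on log2 CPM and 0.410 by limma on log2(FPKM + 1).

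Ccl5 was not called over both lines, with a log2 fold change of 0.41 (SE 0.19, edgeR adjusted p = 0.335). Within CT26 its change was -0.01 (-0.26 to 0.23), and within MC38 0.99 (0.62 to 1.40), so the MC38 libraries differed beyond counting error and the CT26 libraries did not. Cxcl12 was not called either, at -0.14 (SE 0.36, edgeR adjusted p = 0.9497), and its intervals within both lines include no change.

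Among the genes under the filter, Ccl7 had a log2 fold change of 1.77 in MC38 (1.12 to 2.57), from 22 to 76 fragments, and of 0.42 in CT26 (-2.03 to 3.31). Cx3cl1 had a log2 fold change of 0.08 in MC38 (-0.12 to 0.28), so its 2 MC38 libraries agree within counting error at 419 and 434 fragments. For Cxcl5 the value within CT26 was 0.97 (0.02 to 2.07) and within MC38 -1.17 (-4.90 to 0.93), the latter from 6 and 2 fragments.

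**Figure D4:**
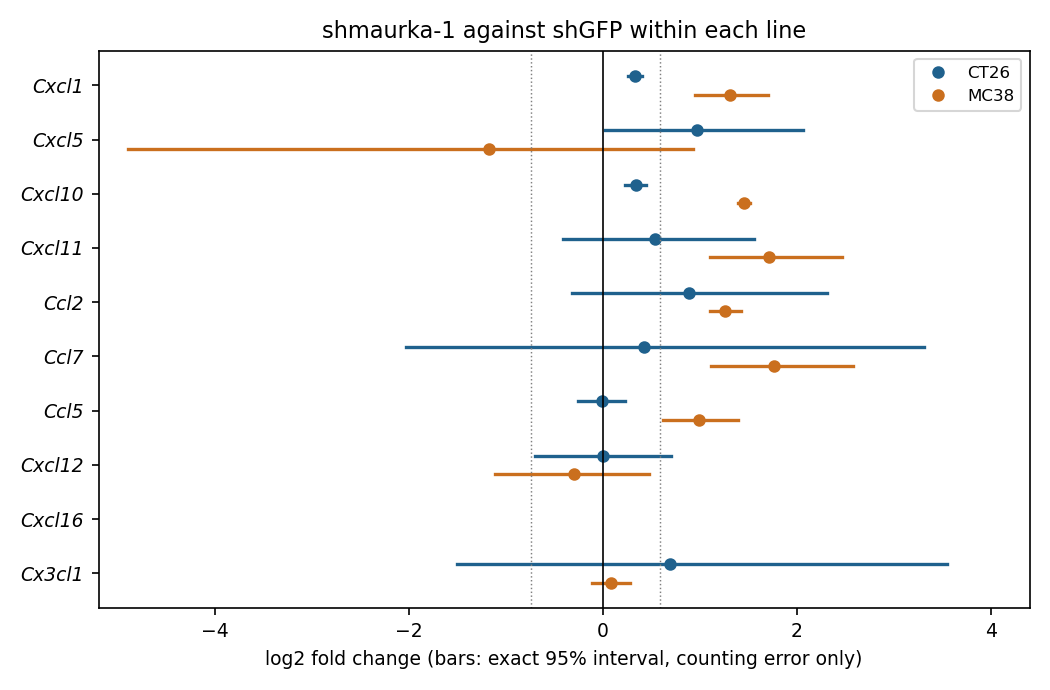
Points give the log2 fold change of shmaurka-1 over shGFP for each chemokine gene in CT26 and in MC38, bars give the exact 95% interval of counting error, and dotted lines mark folds of 1.5 and 0.6. For Ccl2, Ccl5, Ccl7, Cxcl1, Cxcl10 and Cxcl11 the MC38 interval lies above 0, and in CT26 the intervals of Cxcl1, Cxcl10 and Cxcl5 do.

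A fold of 1.5 was passed by 5 of the 6 tested chemokines in MC38, all but Cxcl12, and by 1 of the 6 in CT26, Ccl2. Among all genes tested 2.47% passed it in MC38 and 3.2% in CT26. None of the 6 was under a fold of 0.6 in either line, where 1.03% of genes were under it in MC38 and 2.57% in CT26. The fold of Cxcl10 in MC38 was 2.17 times that in CT26 (95% interval 1.99 to 2.36). The same ratio was 1.98 for Cxcl1 (1.53 to 2.59) and 2.02 for Ccl5 (1.47 to 2.79). For Cxcl11 it was 2.29 with an interval of 0.985 to 5.31, and for Ccl2 1.24 with an interval of 0.480 to 3.01. For Cxcl10, Cxcl1 and Ccl5 the difference between the lines exceeded counting error. It could not be tested over samples, because with 1 library per condition no residual degree of freedom is left. Markers of other cells also differed between the libraries of a line. Of 4 endothelial markers, Cdh5 had 173 and 81 fragments in MC38 and Pecam1 42 and 18, against 24 and 25 and 14 and 13 in CT26. The 4 summed to 0.540 and 0.658 FPKM in CT26 and to 1.76 and 0.861 in MC38. Among epithelial markers in CT26, Krt20 had a log2 fold change of -0.96 (-1.21 to -0.72) with shmaurka-1. Cdx2 had one of -1.83 there (-4.54 to -0.26), from 14 and 3 fragments, and neither gene passed the filter for the test. Of the 10 mesenchymal markers, Vim, Pdgfra and Dcn were lower and Pdgfrb higher with shmaurka-1 in MC38, and Col1a1, Col3a1 and Dcn were lower and Pdgfrb higher in CT26, with intervals that exclude no change. Of the 9 mesenchymal and 2 endothelial markers tested, 0 were called in the knockdown by edgeR, DESeq2 or limma. By edgeR 3 mesenchymal and 1 endothelial marker were lower and 1 mesenchymal marker higher at an unadjusted p under 0.05. Such a p, in either direction, was found for 1469 of all 11928 genes tested. Their part in the chemokine values was not tested.

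The mRNAs of 15 regulators of chemokine genes, transcription factors and the NF-kappaB inhibitor Nfkbia, were compared next, and all 15 were tested. In the knockdown, edgeR called 3 higher (1.67% of all genes tested), limma on log2 CPM 3, DESeq2 1 and limma on log2(FPKM + 1) 0. By each of these tools 0 had an unadjusted p under 0.05 for a lower level. The median log2 fold change by edgeR was 0.11. Stat2, which carries type I interferon signals to the nucleus, had 5305 and 6582 fragments in CT26 and 4833 and 6195 in MC38, and rose by 0.41 (edgeR adjusted p = 0.00203). Irf7, an interferon-induced factor, rose by 0.34 (edgeR adjusted p = 0.0359). The NF-kappaB genes Nfkb1, Nfkb2 and Relb and the inhibitor Nfkbia had log2 fold changes over both lines of -0.15, 0.02, 0.22 and 0.11, and Rela had 0.13, and none of these 5 was called. That of Nfkbia averages 0.47 in MC38 (0.32 to 0.63) and -0.21 in CT26 (-0.30 to -0.11). Rela had 0.26 in MC38 (0.20 to 0.33) and 0.01 in CT26 (-0.06 to 0.07). Between the lines, edgeR called 10 of the 15 higher in CT26 and 3 higher in MC38, beside 36.6% and 36.7% of all genes tested. The log2 difference of CT26 minus MC38 was 1.76 for Nfkb2, 2.01 for Relb, 1.66 for Nfkbia and 1.10 for Nfkb1, all called. CT26, with more mRNA of these genes, was called higher for Cxcl1 and Ccl5 but lower for Ccl2, Cxcl10 and Cxcl11. The part of the 15 genes in the chemokine levels was not tested.

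Of 15 inducing cytokines and receptors for them 9 were tested, and 0 were called in the knockdown by edgeR, DESeq2 or limma, also at an unadjusted p under 0.05, with a median log2 fold change of -0.03. The type I interferon gene Ifnb1 had 20 and 24 fragments in the CT26 libraries and 0 in both of MC38. The inflammatory cytokine Tnf had 0, 0, 0 and 1 fragments, and Il1b and Ifng had 0 in every library. Between the lines, 8 of the 9 were called higher in CT26 and 1 lower, beside 36.6% and 36.7% of all genes tested. The largest log2 difference was that of Il1r1, the interleukin-1 receptor, at 2.31 (edgeR adjusted p = 2.12e-71). In the knockdown the interferon receptor genes Ifnar1, Ifnar2, Ifngr1 and Ifngr2 had log2 fold changes of -0.03, -0.04, -0.03 and -0.19. Within a line, the fold changes of the 9 genes whose interval excludes no change lay between -0.24 (Ifngr2) and 0.15 (Ifnar2) in CT26, for 3 genes, and between -0.31 (Il1r1) and -0.10 (Tnfrsf1a) in MC38, for 4 genes.

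Of 6 enzymes that cut chemokines or release the membrane-anchored ones 5 were tested, and the other one, Dpp4, had between 2 and 13 fragments. In the knockdown 0 were called by edgeR, DESeq2 or limma, while 2, Adam10 and Mmp14, had a lower level at an unadjusted p under 0.05 by edgeR, as against 1469 of the 11928 genes tested with such a p in either direction. Adam10, a sheddase of Cx3cl1 and Cxcl16, had 1394, 1013, 3002 and 2756 fragments and a log2 difference of CT26 minus MC38 of -0.99 (edgeR adjusted p = 2.23e-19). Adam17, the other sheddase, had 1340, 1359, 3376 and 3207 fragments and a log2 difference of -1.001 (edgeR adjusted p = 2.57e-20). MC38, the line with Cx3cl1, thus had more of the mRNA of both sheddases. Mmp2 and Mmp9 were likewise called higher in MC38 and Mmp14 in CT26, beside 36.7% and 36.6% of all genes tested.

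The receptors for the 10 chemokines were close to absent. Among 23 chemokine receptor genes 14 never exceeded 3 fragments, and 1 was tested. Cxcr3, the receptor of Cxcl10 and Cxcl11, had 0, 0, 4 and 2 fragments. Cxcr2, the receptor of Cxcl1 and Cxcl5, had 1, 2, 1 and 0. Ccr2, the receptor of Ccl2 and Ccl7, had 1, 1, 3 and 5. Cxcr4 had 2, 2, 1 and 1 fragments and Cxcr6 had 0 in every library. A count of 0 allows up to 3 fragments in a library of this depth. Ccr1, which binds Ccl5 and Ccl7, was the exception in CT26, with 257 and 89 fragments against 0 and 2 in MC38. The CT26 shmaurka-1 library had less of it, with a log2 fold change of -1.40 (95% interval -1.77 to -1.06). Ackr3, a scavenger of Cxcl12 and Cxcl11, had 101 and 121 fragments in CT26 and 6 and 10 in MC38.

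By the smallest Euclidean distance of centred log2 TMM-scaled counts over the 4 libraries, among 11927 other genes, the patterns nearest to that of Cxcl1 were those of Gm11127 (distance 0.214), Rims2 (0.320) and Plac8 (0.334). Plac8 had 842 and 1168 fragments in CT26 and 30 and 60 in MC38. Those nearest to Cxcl10 were Gm2415 (distance 0.420), Ogn (0.471) and Eldr (0.486), of which Ogn, an extracellular matrix proteoglycan gene, had 98, 126, 209 and 390 fragments. With 4 libraries such likeness is a description of these libraries.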

How the data were processed

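RNA-seq of 4 libraries, 1 per condition, was used. For each of 51905 genes the authors deposited an FPKM value and an estimated count per library. The submitters' processing notes name Trimmomatic 0.36, HISAT2, Cufflinks 2.2.1, Cuffdiff and GRCm39, but the loci of all 11 genes checked, the 10 chemokines and Aurka, overlapped their RefSeq genes in GRCm38. The deposited estimated counts had been scaled between libraries, and dividing by the step of each library gave whole fragments, within 0.05, for 97.1% to 97.7% of nonzero values. Intervals and the floor used these fragments, and libraries differed at most 1.07-fold in depth.

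Fold changes within a line are ratios of TMM-normalized deposited counts with 1 count added, and intervals are exact conditional binomial ones at the 95% level. Comparisons over both lines, or over both hairpins, used edgeR 4.0.16 (quasi-likelihood test, R 4.3.3) on deposited counts rounded to whole numbers, with the other factor as a block and Benjamini-Hochberg adjustment over all genes tested. The procedure was run on simulated counts with the same spread for every gene and 200 genes changed equally in both lines. Such counts cannot test it for genes whose fold or spread differs between the lines. Alternatives were other scalings, filters and added counts, DESeq2 1.42.0, limma 3.58.1 on CPM and on deposited FPKM, and a fit with no block. Fold thresholds of 1.5 and 0.6 follow the study. Nothing in the labels says whether the RNA came from repeated cultures.

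The chemokines and the gene lists were chosen with earlier results of these data known. The genes named are the 10 members, Aurka, from each list at most 6 called genes by smallest p and the 4 with the highest mean FPKM, and the 3 genes nearest in pattern to each of the 2 most abundant chemokines. Receptors of the members, cytokines, markers and other single genes were named outside this rule, after their values were seen. Some items are not reported here. Intervals used scipy 1.17.1 under Python 3.11.15, tables used pandas 2.3.3, and figures used matplotlib 3.10.9.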

Additional observations from a re-analysis of the deposited data

Results flagged for a closer look

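For 3 chemokines the fold changes of the lines had opposite signs with the Aurka hairpin, and that difference was not tested over samples. Ccl5 had a log2 fold change of 0.99 in MC38 and -0.0128 in CT26, the latter within counting error of no change and at 0.0708 with deposited FPKM plus 0.1, the sign of MC38. Cxcl5 had one of -1.17 in MC38 and 0.97 in CT26, on at most 26 fragments in any library. Cxcl12 had one of -0.30 in MC38 and 0.00201 in CT26, with intervals that include no change in both lines, and in CT26 it took the sign of MC38 with total-count scaling (-0.0214) and with deposited FPKM plus 0.1 (-0.138).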

How the results depend on the processing

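Of 355 alternative values 317 counted as the same and 38 did not. That meant the same call for a gene tested, within 1.5 times for a count of genes and within counting error for a level. Every fold of a single gene within a line also counted as the same, although some crossed a fold of 1.5 or 0.6. On the log2 scale, Ccl2 in CT26 went from 0.88 to 0.48 with deposited FPKM plus 1. Cx3cl1 in CT26 went from 0.69 to 0.29 with deposited FPKM plus 0.1, and Cxcl5 in MC38 from -1.17 to -0.60 with 5 counts added. Among the 317, 5 took the other sign, all of them uncalled CT26 folds near 0, of Ccl5 with deposited FPKM and of Cxcl12 with deposited FPKM or total-count scaling. In the knockdown test, 1 chemokine was called in place of 4 when each line had to average 50 counts or more (101 genes called in all against 333), and 0 with DESeq2's Wald test (37 genes), without the replicate block, which here is the cell line (0 genes) or with limma on log2(FPKM + 1) (1 gene). At an unadjusted p under 0.05 these last settings gave 1, 0 and 5 chemokines. Under the stricter filter Ccl2 and Cxcl11 were not tested. Cxcl1 was tested but not called there, with a log2 fold change of 0.62 against 0.63 (edgeR adjusted p = 0.0742 against 9.26e-05). The prior degrees of freedom were 16.06 under that filter against infinite. Under DESeq2 Ccl2, Cxcl1, Cxcl10 and Cxcl11 had 1.18, 0.80, 0.89 and 1.19, and Ccl2 and Cxcl11 got no adjusted p. The other settings called 3 or 4, and Cxcl11 was the gene lost. In the line test, 8 chemokines were called in place of 5 with no filter, filterByExpr or the either-line filter, since more were tested (the 3 added passed only through their higher line, so these calls support nothing), and 3 under the stricter filter of 50 counts, since fewer were. In CT26, 0 tested chemokines passed a fold of 1.5 with deposited FPKM plus 1, in place of 1. With total-count scaling 10 levels, those of Cxcl10 in every library, Cxcl1 in CT26, and Ccl2 and Cx3cl1 in MC38, left their counting interval. Apart from the number of genes tested, the cause was not tested. The knockdown test already pairs the libraries of a line through its block. Leaving out a library leaves no residual degree of freedom and was not run. Depth limits Cxcl16, Cxcl5 and, in CT26, Ccl2, Ccl7, Cxcl11 and Cx3cl1.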

Other observations

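Among 28 other chemokine ligand genes 15 never exceeded 3 fragments, and 9 of these had 0 in every library. Cxcl2, a close relative of Cxcl1, had at most 1 fragment in any library, and Cxcl9, a relative of Cxcl10, had 1, 0, 5 and 3 fragments in CT26 shGFP, CT26 shmaurka-1, MC38 shGFP and MC38 shmaurka-1. Ccl20, the ligand of Ccr6, was made by CT26, with 354 and 310 fragments against 2 and 1 in MC38. Cxcl3, another neutrophil attractant, was a gene of MC38, with 6 and 3 fragments in CT26 and 88 and 169 in MC38, where its log2 fold change with shmaurka-1 was 0.96 (95% interval 0.59 to 1.36, counting error only). Ccl8 had 0 fragments in both CT26 libraries and 22 and 18 in those of MC38. Ccl25 was the only other ligand tested, with 317, 240, 313 and 317 fragments, and was not called in the knockdown (log2 fold change -0.12, edgeR adjusted p = 0.877). Within CT26 the shmaurka-1 library had less Ccl25 (-0.28, 95% interval -0.53 to -0.03) and less Ccl9, with 45 and 23 fragments (-0.82, 95% interval -1.64 to -0.09). These and Cxcl3 in MC38 were the other ligands whose interval within a line excluded no change.

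Among receptors, 1 gene passed the filter, Ccrl2, an atypical receptor of this family. It had 13 and 12 fragments in CT26 and 72 and 117 in MC38, with a log2 difference of CT26 minus MC38 of -2.59 (edgeR adjusted p = 1.24e-12). Its knockdown log2 fold change over both lines was 0.52 (edgeR adjusted p = 0.594), from 0.72 in MC38 (95% interval 0.29 to 1.17) and 0.00487 in CT26 (-1.26 to 1.25).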
